A study of Mus musculus with 9 samples.

Results

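The genes described here encode the nuclear subunits of the mitochondrial respiratory chain and of ATP synthase. They were chosen by symbol alone, as every listed gene whose symbol starts with Nduf followed by a, b, c, s or v and a digit, is Sdha, Sdhb, Sdhc or Sdhd, or starts with Uqcr, Cox4 to Cox8, or Atp5. This gave 84 of the 24532 listed genes, of which 37 fell in the complex I group, 4 in complex II, 8 in complex III, 18 in complex IV and 17 in complex V. RNA was sequenced from the medial prefrontal cortex of 9 C57BL/6 mice. The mice were labelled 11 weeks old. They were male. The 3 CT mice were wild type and were not restrained, the 3 WT_ST mice were wild type and underwent chronic restraint stress, and the 3 KO_ST mice carried Fkbp5-/- and underwent the same restraint. Food and water were withheld from all groups, CT included, during the restraint sessions. The knockout line had been backcrossed to C57BL/6J and bred from heterozygous parents. Unstressed knockout mice were not analysed here, so KO_ST against CT differed in both genotype and stress, and both stressed groups were compared with the same 3 CT mice.

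The respiratory chain passes electrons from NADH and succinate to oxygen and pumps protons out of the mitochondrial matrix. Complex I oxidises NADH, complex II oxidises succinate as part of the citric acid cycle, complex III passes electrons from ubiquinol to cytochrome c, complex IV reduces oxygen, and complex V uses the proton gradient to make ATP. Neurons depend on this pathway to restore ion gradients after firing, and its subunits are encoded partly in the nucleus and partly in mitochondrial DNA. The subunits encoded in mitochondrial DNA were not analysed here.

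Several symbols do not match the complex in which the protein sits. Ndufa4 is counted with complex I by its symbol, although its protein is a subunit of complex IV. Cox7a2l encodes a factor that joins complexes III and IV into supercomplexes, and Atp5s and Atp5sl encode assembly-related proteins rather than subunits of ATP synthase. The carrier Cycs and the subunits Cyc1 and Usmg5 were outside the symbol rule and are given with the other gene lists.

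Sequence upstream of the genes was taken from RefSeq on GRCm38.p6 as a feature that the symbol rule did not use. Promoter windows, from 250 bases before to 50 bases after an annotated start, were found for 69 of the 84 genes, 75 windows in all. Each window was searched on both strands for short motifs and counted once per motif. The NRF1 core GCGCATGC, bound by a regulator of nuclear genes for mitochondria, was in 13.3% of the members' windows and in 2.71% of all 32851 windows. The ETS core CGGAAG, which the regulator GABP can bind, was in 37.3% of the members' windows and 16.9% of all windows. The YY1 core AAGATGGC was in 16% against 2.75%, and AAGGTCA, the site of oestrogen-related receptors, in 10.7% against 4.72%. The TATA box TATAAA was in 10.7% of the members' windows and in 13.6% of all. For TGTTCT, which is part of a glucocorticoid response element, the shares were 12% and 19.0%. A match describes the letters only and shows no binding.

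The 250 bases before the start are printed for Ndufa9, Atp5h, Cox7b and Ndufb10, whose differences between groups had the smallest p values in a comparison with CT, and for Ndufa8, which holds the NRF1 core. Capitals mark the ETS core (CGGAAG or CTTCCG) or, in Ndufa8, the NRF1 core (GCGCATGC or its reverse complement GCATGCGC). The windows of Cox7b and Ndufb10 held none of the NRF1, ETS, YY1 or AAGGTCA motifs in these 250 bases. Each is written 5′ to 3′ in the direction of transcription.
Ndufa9, chr6:126849145-126849394, minus strand: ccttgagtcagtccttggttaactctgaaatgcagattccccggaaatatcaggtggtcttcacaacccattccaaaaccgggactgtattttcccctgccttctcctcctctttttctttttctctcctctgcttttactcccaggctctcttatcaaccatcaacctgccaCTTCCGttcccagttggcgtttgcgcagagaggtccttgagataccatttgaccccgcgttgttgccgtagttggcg
Atp5h, chr11:115419920-115420169, minus strand: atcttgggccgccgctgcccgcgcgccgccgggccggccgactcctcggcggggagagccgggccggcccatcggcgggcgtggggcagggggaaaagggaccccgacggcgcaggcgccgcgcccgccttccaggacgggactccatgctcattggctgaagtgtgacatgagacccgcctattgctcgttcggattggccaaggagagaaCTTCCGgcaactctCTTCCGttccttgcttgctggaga
Cox7b, chrX:106015450-106015699, plus strand: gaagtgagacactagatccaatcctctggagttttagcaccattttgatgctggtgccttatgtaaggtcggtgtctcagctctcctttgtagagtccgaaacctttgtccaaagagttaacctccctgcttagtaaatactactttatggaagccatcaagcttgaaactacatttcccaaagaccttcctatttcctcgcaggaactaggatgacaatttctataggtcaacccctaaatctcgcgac
Ndufb10, chr17:24724424-24724673, minus strand: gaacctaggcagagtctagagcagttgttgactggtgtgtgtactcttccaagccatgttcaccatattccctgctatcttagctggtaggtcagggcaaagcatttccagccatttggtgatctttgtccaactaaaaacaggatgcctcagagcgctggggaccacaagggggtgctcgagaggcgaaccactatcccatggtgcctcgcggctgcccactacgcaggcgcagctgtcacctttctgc
Ndufa8, chr2:36049339-36049588, minus strand: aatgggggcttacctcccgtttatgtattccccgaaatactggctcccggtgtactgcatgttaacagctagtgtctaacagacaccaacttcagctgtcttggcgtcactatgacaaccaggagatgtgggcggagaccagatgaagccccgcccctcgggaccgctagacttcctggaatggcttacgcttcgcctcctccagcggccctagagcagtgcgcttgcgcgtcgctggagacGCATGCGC

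The knocked-out gene was checked first, in FPKM, a read number scaled by transcript length and by the size of the library. Fkbp5, a co-chaperone that lowers the sensitivity of the glucocorticoid receptor, was at 7.61, 6.46 and 7.28 FPKM in the CT mice, 9.83, 9.47 and 10.2 in WT_ST and 3.595, 4.69 and 4.45 in KO_ST. All 3 KO_ST mice lay below all other mice, although 625 or more reads were still counted on the gene in each mouse. The log2 difference between KO_ST and WT_ST was -1.04 (SE 0.0867, adjusted p = 0.00908 from limma). Each mouse had between 43778471 and 61150128 counted reads. The cortical neuron gene Slc17a7 was at 580.8 to 677.3 FPKM and Tbr1 at 46.0 to 56.0. Of the 5 excitatory neuron markers 1 passed an unadjusted p of 0.05, Camk2a, which was at 794.4 to 806.5 FPKM in CT, 726.2 to 750.3 in WT_ST and 699.3 to 781.5 in KO_ST. It passed in KO_ST against CT only, and not there without quantile normalization, with edgeR or with DESeq2. Those 3 settings each gave 1 lower marker in WT_ST against CT. In KO_ST against CT edgeR and DESeq2 each gave 1 higher marker, and in KO_ST against WT_ST 1 marker was lower with edgeR and without quantile normalization. In contrast to these levels, Ttr, Kl and Folr1, which mark the choroid plexus, summed to 0.400 to 1.06 FPKM. The striatal gene Drd1 was at 2.70 to 4.71 FPKM and Ppp1r1b at 24.9 to 41.59. Drd2 was at 0.640 to 0.809 FPKM in CT, 0.818 to 2.275 in WT_ST and 0.883 to 1.409 in KO_ST. Adora2a was at 0.683 to 0.814, 0.8355 to 2.07 and 0.627 to 1.207 FPKM in the same order. Microglial markers differed with the groups: Cx3cr1, P2ry12, Csf1r and Tmem119 summed to 71.5 to 86.2 FPKM in CT, 53.3 to 62.9 in WT_ST and 27.1 to 62.3 in KO_ST, and none of the 4 was at 0. All 4 were lower in WT_ST and in KO_ST than in CT at an unadjusted p under 0.05, though only 2 passed in KO_ST with DESeq2. Of the 3 endothelial markers 2 were lower in each comparison with CT, of the 5 astrocyte markers 2 were lower in WT_ST and 1 in KO_ST, and of the 4 striatal markers 2 were higher in WT_ST and 1 in KO_ST. At an unadjusted p under 0.05, 3.92% of all tested genes were higher and 3.94% lower in WT_ST against CT. In KO_ST against CT these shares were 4.47% and 4.98%. No cell type marker passed an adjusted p of 0.05 in limma. Oligodendrocyte markers summed to 413.4 to 788.8 FPKM in CT, 433.7 to 695.7 in WT_ST and 468.7 to 623.3 in KO_ST. In bulk tissue, fewer cells of a type and less RNA per cell cannot be told apart, and the part of cell makeup in the results below was not tested.

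The respiratory chain genes were among the most abundant transcripts of this tissue. Of the 84 genes, 39 had a mean of at least 100 FPKM, a level that 636 of all listed genes reached, and 70 had at least 50 FPKM. Together the 80 genes with enough reads to test took 0.960% to 1.04% of the reads of each mouse. Atp5b, the catalytic beta subunit of ATP synthase, was the highest at 582.0, 576.3 and 564.2 FPKM in CT, 622.9, 599.1 and 595.1 in WT_ST, and 610.8, 629.5 and 601.9 in KO_ST. Cox4i1, the common form of complex IV subunit 4, followed with a mean of 565.8 FPKM over the 9 mice. The highest of the other groups were Ndufa4 at 320.9, Sdha, the flavoprotein of complex II, at 170.2, and Uqcrh, the hinge protein of complex III, at 167.6 FPKM. The median member was at 78.8 FPKM in the complex I group, 84.7 in complex II, 121.8 in complex III, 174.7 among the 14 tested complex IV genes, and 159.4 in complex V. The 7 conserved core subunits of complex I, which carry its flavin and iron-sulphur clusters, lay between 56.3 (Ndufv2) and 109.2 FPKM (Ndufv1). The 5 subunits of the F1 head of ATP synthase reached from 98.0 (Atp5e) to 598.0 FPKM (Atp5b), although the head holds several copies of some subunits and a single copy of others. FPKM is scaled by transcript length, so levels can be set side by side between genes, except where the assignment of reads to near-identical copies is uncertain, as for Ndufs5 below.

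**Figure D1:**
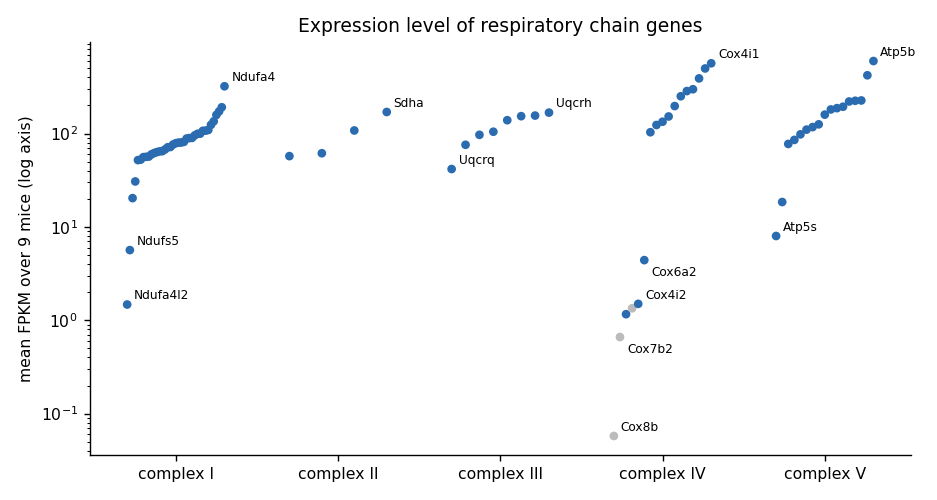
Mean FPKM over the 9 mice (vertical log axis) of each respiratory chain gene, grouped by complex and ordered by level within it; blue points passed the read filter, grey points did not, and Cox8c, listed at 0, cannot be shown. Of the 84 genes, 70 lie at or above 50 FPKM, and the tissue isoforms of complex IV lie far below.

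In each isoform set except that of Cox7a, 1 form carried most of the transcript. Cox4i1 was at 565.8 FPKM and Cox4i2, the form linked to low oxygen and to pericytes, at 1.499. Cox6a1 was at 389.8 FPKM against 4.41 for Cox6a2, the form of heart and skeletal muscle. Cox6b1 was at 285.2 FPKM against 1.16 for Cox6b2, a testis form. Cox7a2 was at 123.5 and Cox7a2l at 103.3 FPKM, while Cox7a1, the muscle form, was at 1.34. Cox7b was at 133.8 FPKM against 0.661 for Cox7b2. Cox8a was the only Cox8 gene with more than a few reads, with a mean of 497.9 FPKM. The muscle form Cox8b had between 0 and 6 reads in a mouse, and Cox8c was listed at 0 in all 9. Ndufa4l2, which is induced by low oxygen, was at 1.48 FPKM against 320.9 for Ndufa4. The 3 genes for the c subunit of the ATP synthase rotor make the same mature protein and were less unequal, at 77.4 FPKM for Atp5g1, 85.5 for Atp5g2 and 226.2 for Atp5g3. Cox7a1, Cox7b2, Cox8b and Cox8c averaged under 30 reads and were not tested, so all 4 genes left out belonged to complex IV.

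In FPKM the abundant isoforms overlapped between all groups, apart from Cox7a2l, Cox7b and Ndufa4. Cox6a1 was at 388.3, 365.3 and 396.9 FPKM in CT, 384.9, 399.0 and 377.1 in WT_ST, and 382.9, 412.5 and 401.4 in KO_ST. Cox6b1 was at 279.1 to 301.6 FPKM in CT, 273.0 to 302.0 in WT_ST and 271.7 to 290.5 in KO_ST, and Cox8a at 484.1 to 533.4, 468.1 to 511.6 and 486.2 to 508.1. Cox7a2 was at 121.9 to 124.6 FPKM in CT, 117.6 to 126.6 in WT_ST and 118.7 to 130.0 in KO_ST. Cox7a2l was at 105.7, 107.2 and 108.7 FPKM in CT, 106.2, 97.1 and 101.7 in WT_ST, and 100.1, 101.8 and 101.5 in KO_ST, so that its KO_ST mice were all below its CT mice. Its log2 difference from CT was -0.065 in KO_ST (SE 0.0368, adjusted p = 0.600 from limma) and did not pass before adjustment. The rotor genes also overlapped, with Atp5g1 at 74.7 to 77.1 FPKM in CT, 75.1 to 79.9 in WT_ST and 75.8 to 83.0 in KO_ST. Atp5g2 was at 86.3 to 87.7, 81.2 to 91.1 and 77.9 to 87.9 FPKM in the same order, and Atp5g3 at 219.2 to 232.4, 218.7 to 235.7 and 216.1 to 235.7. Of the scarce isoforms, Cox6b2 was at 1.04 to 1.38 FPKM in CT, 0.829 to 1.31 in WT_ST and 1.21 to 1.37 in KO_ST, from 23 to 41 reads. Cox7a1 was at 0.741 to 1.36 FPKM in CT, 0.723 to 1.86 in WT_ST and 1.304 to 2.53 in KO_ST, and Cox7b2 at 0.337 to 1.19, 0.112 to 0.6997 and 0.405 to 0.792. Among the genes leading their complex, Ndufa4 was at 316.3, 305.6 and 312.0 FPKM in CT, 334.9, 311.3 and 323.6 in WT_ST, and 331.7, 330.9 and 321.7 in KO_ST. Its KO_ST mice were above its CT mice in FPKM but overlapped them on the quantile-normalized scale. Its log2 differences were 0.05, 0.06 and 0.01 in the 3 comparisons, and none passed. Uqcrh was at 163.7, 169.0 and 184.5 FPKM in CT, 158.5, 176.2 and 158.9 in WT_ST, and 173.2, 159.4 and 165.0 in KO_ST, with all groups overlapping.

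The level of most of these genes was close between mice. Within a group, the standard deviation of a member on the quantile-normalized log2(FPKM+1) scale had a median of 0.0555. The median was 0.0911 over all 14370 tested genes and 0.0627 over the 1486 tested genes with at least 50 FPKM. Uqcrfs1, the iron-sulphur protein of complex III, varied least, with a standard deviation of 0.0149 and 72.4 to 78.2 FPKM over all 9 mice. A standard deviation above 0.2 was found for 5 genes, namely Cox4i2, Cox6a2, Ndufs5, Uqcrq and Atp5f1. Cox4i2, Cox6a2 and Ndufs5 had fewer than 200 reads in each mouse, while Uqcrq had at least 2345 and Atp5f1 at least 7778. Uqcrq, a small subunit of complex III, was at 49.2, 32.3 and 38.7 FPKM in CT, 50.5, 34.1 and 34.0 in WT_ST, and 49.8, 51.4 and 35.3 in KO_ST, with values near 50 and values near 35 in every group. Atp5f1, the stator b subunit, was at 81.3 to 123.5 FPKM in CT, 94.85 to 136.9 in WT_ST and 94.95 to 121.8 in KO_ST. The transcript length implied by its reads and FPKM was 1677 to 1680 bases in CT mouse 3 and WT_ST mice 1 and 2, and 1847 to 1858 bases in the other 6 mice. Over the 80 tested genes the ratio of the longest to the shortest implied length had a median of 1.01, so reads and FPKM carried nearly the same values.

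Ndufs5, an accessory subunit of complex I, was listed at 2.71 to 6.87 FPKM, lower than every other member of the complex I group but Ndufa4l2. Between 87 and 177 reads were counted on it, against 1643 to 2827 reads on BC002163, a processed pseudogene whose transcript was 99.4% identical to it over 319 bases. Ndufs5 held 3.28% to 7.78% of the reads summed over both genes. Its level is therefore uncertain. Its lowest share and lowest FPKM were both in CT mouse 1, and its log2 difference of 0.34 between KO_ST and CT (SE 0.252, adjusted p = 0.691 from limma) did not pass the test. Of all 84 genes, 18 had at least 1 processed pseudogene transcript with 95% identity over 200 or more bases, and 1 of those 32 copies, BC002163, was in the files. Atp5h, for example, has the copy Gm10250, identical at 99.0% of 485 bases. How reads on such copies were assigned was not tested.

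The first comparison, WT_ST against CT, asks what chronic restraint did to these genes in wild-type mice. None of the 80 tested genes was called by limma at an unadjusted p under 0.05 together with a change of more than 1.2-fold, the pair of limits used in the study, where 2.47% of all tested genes were. None passed an adjusted p of 0.05, which 0.0348% of all genes did. At an unadjusted p under 0.05 with no limit on the fold, 6 genes were higher, against a background of 3.92%, and 5 were lower, against 3.94%. The higher genes were Ndufa9, Ndufs4, Cox5a, Cox7b, Atp5c1 and Atp5h, and the lower were Ndufa7, Ndufa8, Ndufv3, Uqcrfs1 and Atp5j2. On read counts, edgeR and DESeq2 each gave 5 higher and 1 lower, beside 3.25% and 4.22% of all genes with edgeR and 3.15% and 4.01% with DESeq2. Limma without quantile normalization gave 4 higher and 3 lower, beside 2.83% and 4.69%. The 3 mice of each group did not overlap, on the quantile-normalized scale, for 14 genes in the higher direction and 7 in the lower. These are 17.5% and 8.75% of the members, beside 7.54% and 6.46% of all tested genes. The median log2 fold change of the members was 0.03 and that of all genes 0.00, and 51 of the 80 means were higher in WT_ST. The 95% interval of the difference lay within 1.2-fold in both directions for 66 of the 80 genes (82.5%), and for 57.3% of all tested genes. Without WT_ST mouse 1, 2 genes were higher and 2 lower (2.31% and 3.03% of all genes in that fit), and without CT mouse 2, 3 and 3 (2.44% and 2.84%), and the median was 0.02 in each case. Without CT mouse 3, 7 genes were higher and none lower (4.64% and 3.65%), without WT_ST mouse 2, 6 and 1 (2.51% and 2.88%), and without WT_ST mouse 3, 10 and 2 (2.97% and 2.99%). Without WT_ST mouse 3, Atp5s and Cox6a2 met both limits (2.71% of all genes), and without CT mouse 1, Cox5a did (3.7%).

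Ndufa9, an accessory subunit that helps hold the membrane and matrix arms of complex I together, had the smallest p of the members. It was at 85.6, 81.9 and 84.8 FPKM in CT, 97.4, 93.2 and 92.6 in WT_ST, and 87.5, 96.1 and 89.5 in KO_ST. All WT_ST mice lay above all CT mice, and so did all KO_ST mice. The log2 difference between WT_ST and CT was 0.15 (SE 0.0354, adjusted p = 0.542 from limma). Between KO_ST and CT it was 0.11 (SE 0.0520, adjusted p = 0.560 from limma), and there the unadjusted p was not under 0.05. The first difference passed an unadjusted p of 0.05 under every alternative run. The gene lies on chr6:126821863-126849144 (GRCm38.p6), and its printed upstream window holds 1 ETS core.

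Atp5h, the stator d subunit of ATP synthase, was the other gene with a small p. It was at 224.3, 214.6 and 217.2 FPKM in CT, 249.8, 234.5 and 242.8 in WT_ST, and 212.9, 205.1 and 219.9 in KO_ST. The WT_ST mice were all above the mice of both other groups, which overlapped each other. Its log2 difference between WT_ST and CT was 0.16 (SE 0.0409, adjusted p = 0.597 from limma), and that between KO_ST and WT_ST was -0.19 (SE 0.0421, adjusted p = 0.518 from limma). These contrasts share the WT_ST mice. Its difference passed an unadjusted p of 0.05 in both contrasts under every alternative that was run, with any 1 mouse left out as well. The gene lies on chr11:115415691-115419919, its printed window holds the ETS core at 2 places, and it has the near-identical pseudogene copy Gm10250 named above and 3 others of 95% identity or more.

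**Figure D2:**
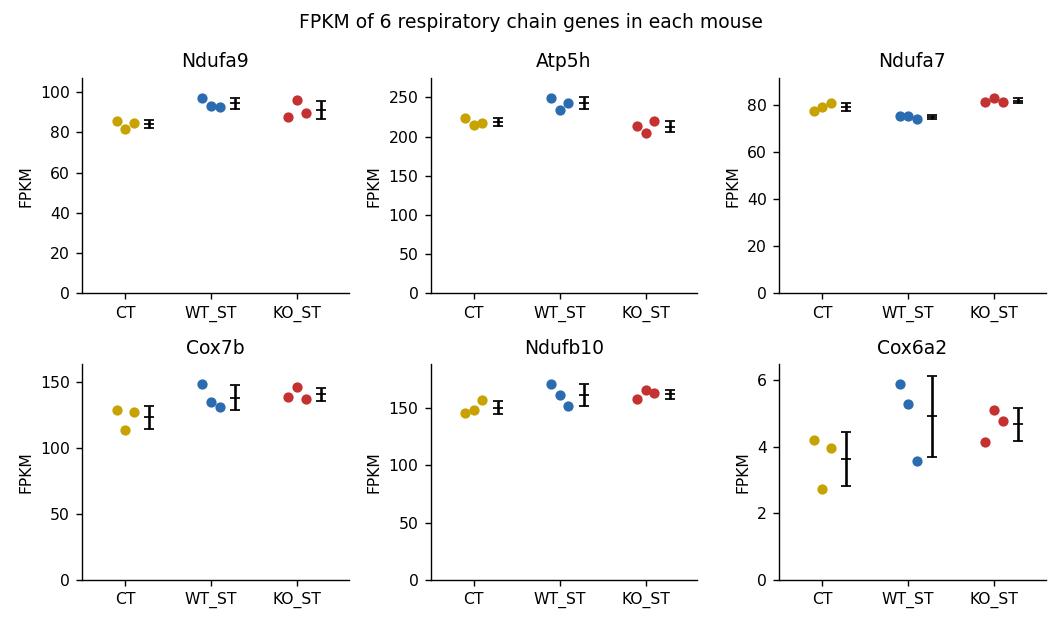
FPKM (vertical axis, from 0) of 6 respiratory chain genes in each of the 9 mice, coloured by group, with the group mean and SD (n = 3) in black beside the points. Atp5h was highest in the WT_ST mice, at 234.5 to 249.8 FPKM, and Ndufa7 was lowest in them, while Cox6a2 overlapped between all groups.

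The second comparison, KO_ST against CT, set the stressed knockout mice beside the unstressed wild type. Both limits were met by 1 of the 80 genes, Cox6a2, or 1.25%, and by 3.56% of all tested genes. No member passed an adjusted p of 0.05 in limma, against 0.0626% of all genes. At an unadjusted p under 0.05, 3 members were higher (background 4.47%) and none was lower (background 4.98%). The higher genes were Cox6a2, Cox7b and Ndufb10. On read counts edgeR gave 9 higher, where 4.54% of all genes were, and DESeq2 gave 7, where 4.52% were. Neither gave a lower one, against 4.8% and 4.87% of all genes. The groups did not overlap for 12 members in the higher direction, 15% of them, where the share of all tested genes was 7.94%. In the lower direction these numbers were 3 members, 3.75% and 7.88%. The median log2 fold change of the members was 0.06, that of all genes 0.00, and 59 of 80 means were higher in KO_ST. The 95% interval stayed within 1.2-fold for 62 of the 80 genes (77.5%), and for 52.7% of all tested genes. Without CT mouse 1 the test gave 6 higher and 3 lower genes (5.8% and 5.25% of all genes in that fit), with Ndufa12 and Cox6a2 past both limits (5.11%). Without CT mouse 2 Ndufa12 alone met them (2.85%). Without CT mouse 3 it gave 5 higher and none lower (4.46% and 4.18%), without KO_ST mouse 1, 5 and 1 (3.04% and 3.7%), and without KO_ST mouse 2, none higher and 2 lower (3.42% and 3.65%).

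Cox7b, a small subunit of complex IV encoded on the X chromosome, had the smallest p of the members here. It was at 128.8, 113.0 and 127.3 FPKM in CT, 148.3, 134.4 and 130.6 in WT_ST, and 138.1, 146.2 and 137.1 in KO_ST. Both stressed groups lay above all CT mice, and CT mouse 2 was the lowest of the 9. The log2 difference from CT was 0.20 in KO_ST (SE 0.0643, adjusted p = 0.499 from limma) and 0.18 in WT_ST (SE 0.0654, adjusted p = 0.635 from limma). The contrasts share the CT mice, and without CT mouse 2 the value of WT_ST against CT was 0.11 and no longer passed an unadjusted p of 0.05. The same was lost without WT_ST mouse 1 (0.14) or WT_ST mouse 2 (0.19), and in KO_ST against CT without KO_ST mouse 2 (0.17). In KO_ST against WT_ST the log2 difference was 0.02, with a 95% interval from -0.08 to 0.13. Cox7b has the pseudogene copies Gm13771, identical at 96.2% of 238 bases, and Gm19503, identical at 96.7% of 241 bases.

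Ndufb10, an accessory subunit of the membrane arm of complex I, was at 145.9, 148.5 and 157.2 FPKM in CT, 171.5, 162.1 and 152.4 in WT_ST, and 158.2, 165.9 and 163.1 in KO_ST. All KO_ST mice were above all CT mice, with a log2 difference of 0.11 (SE 0.0388, adjusted p = 0.501 from limma). It no longer passed an unadjusted p of 0.05 without CT mouse 1 (0.09), CT mouse 2 (0.11), KO_ST mouse 2 (0.09) or KO_ST mouse 3 (0.11). It lies on chr17:24722060-24724423, 3.68 Mb from Fkbp5. How far DNA of the strain in which the knockout was made extends around Fkbp5 was not tested. The other members within 25 Mb of Fkbp5 were Ndufv3 at 3.12 Mb and Ndufa7 at 5.43 Mb. Ndufv3, a small accessory subunit of complex I, was at 63.4, 65.5 and 71.0 FPKM in CT, 59.7, 60.3 and 61.4 in WT_ST, and 65.9, 61.4 and 61.0 in KO_ST. It was lowest in WT_ST, with a log2 difference from CT of -0.14 (SE 0.0465, adjusted p = 0.634 from limma).

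Cox6a2 was the only member past both limits. It was at 4.22, 2.72 and 3.97 FPKM in CT, 5.90, 5.29 and 3.56 in WT_ST, and 4.13, 5.11 and 4.78 in KO_ST, from 98 to 196 reads a mouse. The groups overlapped, and CT mouse 2 was the lowest. The log2 difference between KO_ST and CT was 0.33 (SE 0.138, adjusted p = 0.523 from limma), and 0.19 without CT mouse 2, which ended the call. It was also no longer called without CT mouse 3 (0.38), KO_ST mouse 2 (0.27) or KO_ST mouse 3 (0.32), or with edgeR or DESeq2. In brain this isoform is known from parvalbumin interneurons. Pvalb was at 13.0 to 17.2 FPKM in CT, 15.6 to 19.3 in WT_ST and 18.1 to 19.5 in KO_ST. Between WT_ST and CT the log2 difference of Cox6a2 was 0.37 (SE 0.188) and did not pass. Of the 6 inhibitory neuron markers, 2 (Gad1 and Slc32a1) were higher in WT_ST than in CT at an unadjusted p under 0.05 and 4 were higher in KO_ST than in CT, among them Pvalb, with a log2 difference from CT of 0.34 (SE 0.0990, adjusted p = 0.490 from limma). Of all tested genes, 3.92% and 4.47% were higher in these comparisons. The 6 markers summed to 390.5 to 483.5 FPKM in CT, 429.5 to 462.7 in WT_ST and 459.5 to 478.1 in KO_ST. None of the 6 was at 0, and their part in the value of Cox6a2 was not tested.

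The third comparison, KO_ST against WT_ST, asks what the loss of Fkbp5 changed under stress. None of the 80 genes met both limits in limma, edgeR or DESeq2 (background 2% in limma), and none passed an adjusted p of 0.05 in limma, beside 0.153% of all genes. At an unadjusted p under 0.05, 4 genes were higher (background 2.68%) and 1 was lower (background 3.15%). Ndufa7, Ndufa13, Uqcr11 and Cox4i1 were the higher genes and Atp5h the lower. On read counts, edgeR and DESeq2 each gave 2 higher and 1 lower, beside 2.77% and 2.81% of all genes with edgeR and 2.6% and 2.37% with DESeq2. Limma without quantile normalization gave the same numbers, beside 2.37% and 3.4%. The groups did not overlap for 7 members in the higher direction, 8.75% of them beside 4.99% of all genes, and for 1 in the lower, 1.25% beside 5.97%. The median log2 fold change was 0.02, and 54 of 80 means were higher in KO_ST. The 95% interval was within 1.2-fold for 70 genes (87.5%), and for 63.3% of all tested genes. The median was 0.01 without KO_ST mouse 2 or without WT_ST mouse 2, and 0.02 without KO_ST mouse 1. At an unadjusted p under 0.05, 2 genes were higher and 3 lower without WT_ST mouse 3 (2.72% and 3.1% of all genes in that fit), 2 and 2 without KO_ST mouse 2 (2.55% and 2.58%), and 2 and 1 without WT_ST mouse 2 (1.78% and 2.01%). Without WT_ST mouse 1, Cox6b2 and Uqcrq met both limits (2.38%).

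Ndufa7, an accessory subunit of the matrix arm of complex I, was at 77.8, 79.1 and 81.0 FPKM in CT, 75.6, 75.5 and 74.3 in WT_ST, and 81.5, 83.4 and 81.4 in KO_ST. The 3 groups did not overlap, with WT_ST lowest and KO_ST highest, although the highest mouse was only 1.12 times the lowest. Its log2 difference between KO_ST and WT_ST was 0.13 (SE 0.0335, adjusted p = 0.670 from limma) and passed an unadjusted p of 0.05 there under every alternative run. Between WT_ST and CT it was -0.09 (SE 0.0336, adjusted p = 0.635 from limma), which did not pass with edgeR, with DESeq2 or with 5 of the 6 mice left out in turn. The gene is on chr17:33824572-33838316, on the chromosome of Fkbp5.

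Cox4i1, Uqcr11 and Ndufa13 were the others that passed an unadjusted p of 0.05 here. Cox4i1 was at 559.4, 557.6 and 585.1 FPKM in CT, 581.3, 541.9 and 531.0 in WT_ST, and 554.2, 607.3 and 574.7 in KO_ST. These FPKM values overlapped between the groups, while on the quantile-normalized scale WT_ST lay below both other groups. The log2 difference between KO_ST and WT_ST was 0.09 (SE 0.0359, adjusted p = 0.847 from limma). For Uqcr11, a small subunit of complex III, it was 0.12 (SE 0.0417, adjusted p = 0.829 from limma), and for Ndufa13, a membrane-arm subunit of complex I, also 0.12 (SE 0.0480). Among the most abundant genes of the other complexes, Sdha was at 167.9, 163.1 and 161.1 FPKM in CT, 174.3, 169.1 and 174.3 in WT_ST, and 166.6, 183.6 and 171.8 in KO_ST, and Atp5b had log2 differences of 0.04, 0.08 and 0.04 in the 3 comparisons, none past the test.

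By complex, the differences were small and not of the same sign throughout. In the complex I group the median log2 fold change was 0.04 in WT_ST against CT, 0.07 in KO_ST against CT and 0.03 in KO_ST against WT_ST, and 30 of 37 means were higher in each of the last 2 comparisons. The mean of every core subunit of complex I, 7 in all, was above that of CT in KO_ST, with log2 differences from 0.02 to 0.10, and none passed the test. Complex II had medians of 0.04, 0.09 and 0.01 in the same order, the last of which was 0.02 with edgeR and 0.03 with DESeq2. Sdhd, a membrane anchor of complex II, was at 56.7 to 60.6 FPKM in CT, 60.7 to 67.5 in WT_ST and 61.8 to 63.4 in KO_ST, so that neither stressed group overlapped CT. Complex III had medians of 0.01, 0.09 and 0.04, with values from -0.05 for Uqcrfs1 to 0.19 for Uqcr10 in KO_ST against CT. The first of these medians was 0.0069 without quantile normalization and 0.0117 with it. Complex IV had medians of -0.00, 0.02 and 0.01, the first of which was 0.00 and positive with edgeR and DESeq2. The second was 0.05 and 0.04 with edgeR and DESeq2, and the third 0.02 and 0.03. In complex V the medians were 0.04, 0.04 and -0.01, and the last was positive with edgeR, with DESeq2 and without quantile normalization. The second was 0.07 with edgeR and with DESeq2, and the first 0.06 without quantile normalization. The median over all 80 members was positive in each comparison under these scalings.

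**Figure D3:**
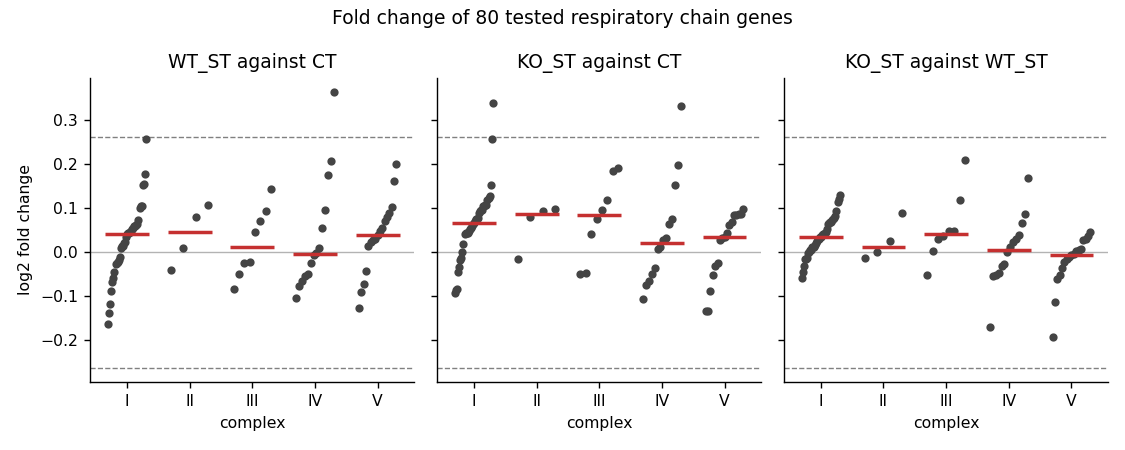
Log2 fold change on the log2(FPKM+1) scale (vertical axis) of the 80 tested genes by complex in the 3 comparisons; each point is a gene, red bars are medians and dashed lines mark a 1.2-fold change. Nearly all points lie between the dashed lines, and the medians lie between -0.01 and 0.09.

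The mean over members was also followed in each mouse, as the deviation of each gene from its mean over the 9 mice on the quantile-normalized log2 scale. Over the 80 genes it was -0.02, -0.06 and -0.01 in the CT mice, 0.04, -0.01 and -0.02 in WT_ST, and 0.03, 0.04 and 0.01 in KO_ST. The KO_ST mice lay above all CT mice, while the WT_ST mice overlapped both groups and included the highest mouse of the 9, mouse 1. Without quantile normalization the mean log2(FPKM+1) was 6.40 to 6.48 in CT, 6.43 to 6.53 in WT_ST and 6.47 to 6.495 in KO_ST, and all groups overlapped. In the complex I group the KO_ST mice were at 0.03, 0.06 and 0.01 and the CT mice at -0.04, -0.04 and -0.01, again without overlap, and complex II likewise had its KO_ST mice (0.01 to 0.06) above its CT mice (-0.05 to -0.01). In complex III the CT mice ranged from -0.09 to 0.02 and the KO_ST mice from -0.03 to 0.10, so these groups overlapped, as they did in complexes IV and V. The summed FPKM of the 80 genes was 10224 to 10679 in CT, 10400 to 11058 in WT_ST and 10640 to 10967 in KO_ST. These sums overlapped between CT and KO_ST. As a share of all reads the 80 genes did not overlap, at 0.960% to 0.988% in CT and 1.003% to 1.043% in KO_ST, with WT_ST at 0.983% to 1.044%. These values are a description with no test, since genes of a complex are not replicates.

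**Figure D4:**
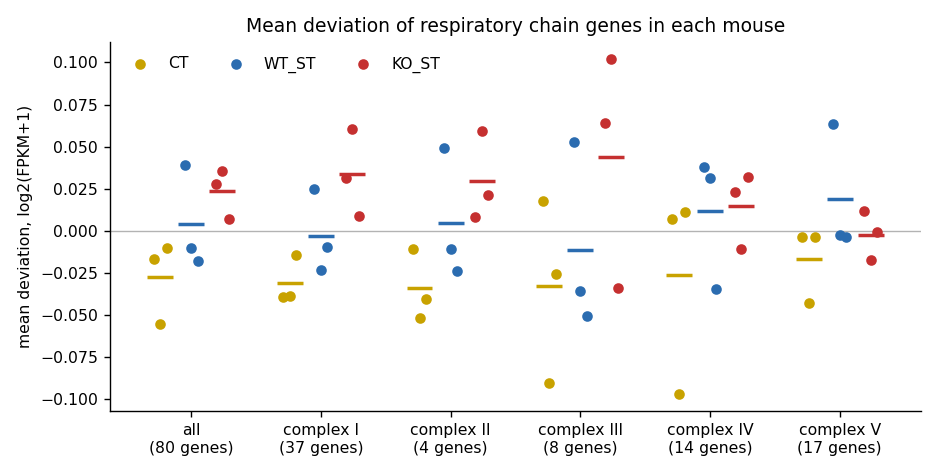
Mean deviation from the 9-mouse mean, in log2(FPKM+1) after quantile normalization (vertical axis), of all 80 tested genes and of each complex; each point is a mouse, and bars are group means (n = 3). Over all genes the KO_ST points (0.01 to 0.04) lie above the CT points (-0.06 to -0.01), and the WT_ST points overlap both.

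Other genes of mitochondrial metabolism were set beside the subunits, by lists that were chosen with earlier results of these data known. Of 18 genes of pyruvate dehydrogenase and the citric acid cycle, 4 were higher in WT_ST than in CT at an unadjusted p under 0.05 and none lower, and 5 were higher in KO_ST than in CT and none lower. Without quantile normalization 3 were higher in WT_ST against CT, and 5 were higher and 1 lower in KO_ST against CT. The shares of all tested genes that were higher, 3.92% and 4.47%, and lower, 3.94% and 4.98%, are those given above for limma and hold for the lists that follow. Their median log2 fold changes were 0.08 and 0.09, and 0.02 in KO_ST against WT_ST, where no gene passed. Suclg1, a subunit of succinyl-CoA ligase, was at 61.9, 60.5 and 59.9 FPKM in CT, 71.7, 68.0 and 66.2 in WT_ST, and 64.3, 68.0 and 66.6 in KO_ST. Its log2 difference between WT_ST and CT was 0.17 (SE 0.0394, adjusted p = 0.564 from limma), with both stressed groups above CT. Pdha1, the catalytic alpha subunit of pyruvate dehydrogenase, was at 89.7 to 94.5 FPKM in CT, 94.8 to 107.1 in WT_ST and 100.5 to 106.1 in KO_ST. The log2 difference between KO_ST and CT was 0.16 (SE 0.0398, adjusted p = 0.458 from limma). Fh1, or fumarase, and Idh3a, which makes NADH in the cycle, were in both sets of higher genes.

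Of 46 assembly factors, which build the complexes but do not stay in them, 3 were higher and 2 lower in WT_ST against CT, 4 higher in KO_ST against CT, and 1 lower in KO_ST against WT_ST. Their medians were 0.02, 0.03 and 0.02, of which the last 2 were 0.00 without quantile normalization. Coa6, which helps deliver copper to complex IV, was at 11.3 to 12.8 FPKM in CT, 13.6 to 14.6 in WT_ST and 13.1 to 14.8 in KO_ST, with a log2 difference of 0.23 between WT_ST and CT (SE 0.0607, adjusted p = 0.602 from limma). Of 18 regulators of mitochondrial biogenesis, 1 was higher and 1 lower in WT_ST against CT, 2 were higher in KO_ST against CT and none passed in KO_ST against WT_ST, where 1 was lower without quantile normalization. That setting also gave only 1 higher in KO_ST against CT. None was lower in WT_ST against CT without quantile normalization, with edgeR or with DESeq2. The 2 higher in KO_ST against CT were Ppargc1a, a coactivator of oxidative metabolism, at 5.30 to 6.21 FPKM in CT, 5.51 to 6.37 in WT_ST and 6.21 to 6.78 in KO_ST, and Esrrg, a receptor that works with it, at 3.29 to 4.18, 4.24 to 4.67 and 4.45 to 4.96 FPKM. Ppargc1a had a log2 difference of 0.22 between KO_ST and CT (SE 0.0811, adjusted p = 0.501 from limma). Among the 6 subunits and carriers outside the symbol rule no gene passed. Cytochrome c, Cycs, was at 28.9 to 32.7 FPKM in CT, 32.3 to 35.1 in WT_ST and 31.6 to 34.7 in KO_ST.

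Genes for the mitochondrial and cytosolic ribosomes were counted in the same way. Of the 78 genes for the mitochondrial ribosome, none was higher and 1 lower in WT_ST against CT, 1 higher and 3 lower in KO_ST against CT, and 1 lower in KO_ST against WT_ST, with medians of -0.01, -0.01 and 0.00, the last of which was -0.01 without quantile normalization. The first 2 were -0.00 with edgeR and with DESeq2, and the second was -0.03 without quantile normalization. Of 97 tested genes taken by symbol as cytosolic ribosomal proteins, 23 were lower and 2 higher in WT_ST against CT, and 28 were lower and 2 higher in KO_ST against CT. Their medians were -0.08 and -0.09 and were negative with edgeR and DESeq2 and without quantile normalization as well. On read counts edgeR gave 15 lower and 1 higher, and 17 lower and none higher, in these comparisons. In KO_ST against WT_ST 8 were lower and 3 higher, with a median of -0.02, while edgeR and DESeq2 each gave 5 lower and 1 higher with a median of -0.00. The symbols also take in genes that encode no ribosomal protein, such as the kinase gene Rps6ka2 on the chromosome of Fkbp5, and the near-copies Rps27 and Rps27rt, whose values moved in opposite directions between mice. How reads were assigned between them was not tested. Rps27 was at 1.41 to 2.52 FPKM in 5 of the CT and WT_ST mice and at 216.0 in CT mouse 2, while its copy Rps27rt was at 1.84 FPKM in CT mouse 2 and at 166.8 to 208.1 in the other 5. In the KO_ST mice Rps27 was at 149.8 to 170.5 FPKM and Rps27rt at 2.54 to 3.27.

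**Figure D5:**
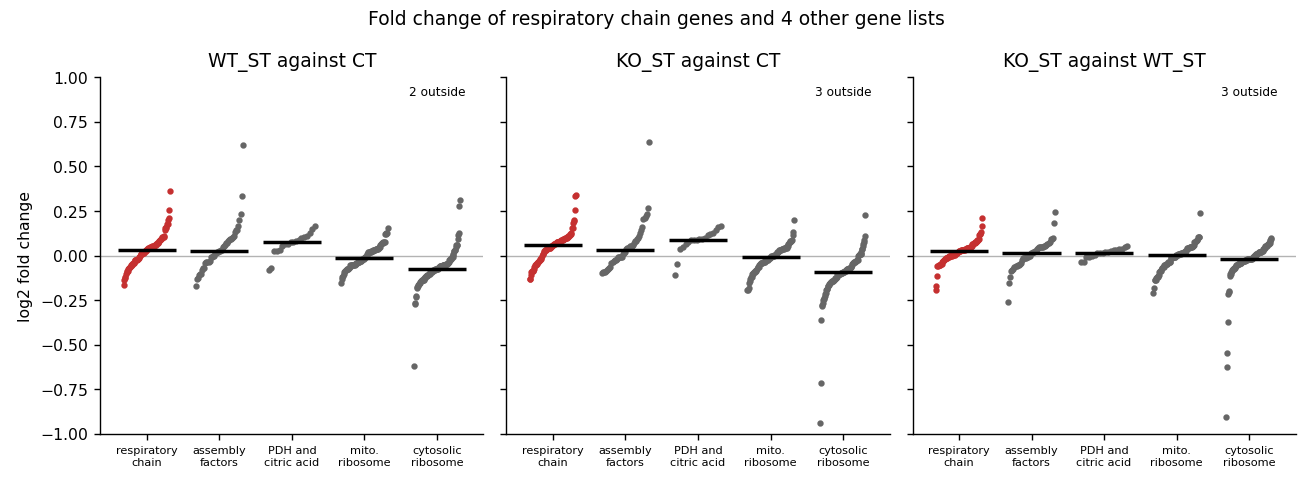
Log2 fold change (vertical axis, cut at -1 and 1) of the 80 respiratory chain genes (red) and of 46 assembly factors, 18 pyruvate dehydrogenase and citric acid cycle genes, 78 mitochondrial and 97 cytosolic ribosomal genes (grey) in the 3 comparisons; each point is a gene, black bars are medians, and the number of genes beyond the axis is written in the panel. The median of the respiratory chain genes is 0.06 in KO_ST against CT, that of the citric acid cycle list is 0.09, and that of the cytosolic ribosomal list is -0.09.

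Members with links to other cell types were checked against markers of those cells. Cox4i2, which pericytes express, was at 1.36, 0.858 and 2.43 FPKM in CT, 1.17, 2.08 and 1.57 in WT_ST, and 1.54, 0.687 and 1.81 in KO_ST. It had 24 to 89 reads a mouse, and its groups overlapped in every comparison. Ndufa4l2 was at 1.32 to 1.95 FPKM in CT, 1.09 to 1.56 in WT_ST and 1.25 to 1.81 in KO_ST. The mural cell markers Rgs5 and Pdgfrb summed to 26.7 to 29.9 FPKM in CT, 26.4 to 30.9 in WT_ST and 20.8 to 32.2 in KO_ST, and neither passed the test in a comparison.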

How the data were processed

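RNA-seq libraries from the prefrontal cortex of 9 mice (3 per group) were analysed. Per the submitters' processing notes and the study's methods, the authors used a stranded mRNA kit and aligned paired reads to mm10 (GRCm38) with HISAT2 2.1.0, which runs through Bowtie2 2.3.4.1, and StringTie 1.3.4d gave abundances. The deposited files hold, for each mouse, a read count and an FPKM value for 24532 genes. FPKM was computed by the authors from transcripts, and the deposited values were used as they stand. How reads were counted is not given in the sources used here.

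FPKM was transformed to log2(FPKM+1), quantile-normalized over the 9 mice and tested for each pair of groups with limma 3.58.1 (R 4.3.3, trend in eBayes) over the 14370 genes averaging at least 30 reads, with Benjamini-Hochberg adjustment over all of them. Fold changes are on this scale, which understates those of low genes. Called genes had an unadjusted p under 0.05 and differed by more than 1.2-fold, the limits of the study. Tests were first run on simulated data. Read counts were also tested with edgeR 4.0.16 and with DESeq2 1.42.0. Other pseudocounts (0.1 and 5), filters and normalization, a fit of all 9 mice, a replicate block and leaving out each mouse were further alternatives. That the mice of a group were separate animals is taken from the labels.

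Members were found by symbol, and members and lists were chosen with earlier results of these data known. Full values are given for Fkbp5, called members, the 2 members with the smallest p in each comparison, the most abundant member of each complex and the isoform sets, with at most 4 genes of each other list. Copies were sought with BLAST+ 2.17.0 among GENCODE M21 transcripts. Promoter windows and gene positions came from RefSeq on GRCm38.p6.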

Additional observations from a re-analysis of the deposited data

How the results depend on the processing

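The number of members past an unadjusted p of 0.05 depended on the setting, and no member passed an adjusted p of 0.05 in any of them. In WT_ST against CT it was 11 with limma, 15 with all 9 mice in 1 fit (7.86% and 8.23% of all genes), 7 without quantile normalization, 6 with edgeR and 6 with DESeq2, and 4 to 12 with 1 mouse left out. Of all genes, 7.52% passed without quantile normalization, 7.47% with edgeR, 7.17% with DESeq2 and 5.28% to 10% with 1 mouse left out. In KO_ST against CT the number of members was 3, then 9 with edgeR, 7 with DESeq2, 5 of 83 with no filter on low reads (9.03% of all genes) and 5 with all 9 mice in 1 fit (11.7% of all genes, against 9.46% with the 6 mice), and 2 to 9 with 1 mouse left out. Of all genes, 9.34% passed there with edgeR, 9.39% with DESeq2 and 6.15% to 11.1% with 1 mouse left out. In KO_ST against WT_ST the number of members was 5, then 3 without quantile normalization, 3 with edgeR and 3 with DESeq2, and 3 to 6 with 1 mouse left out. The shares of all genes were 5.82%, then 5.76%, 5.58% and 4.97%, and 3.79% to 7.37% with 1 mouse left out. The number past both the p and the fold criterion was 0 to 2 in each comparison with 1 mouse left out. In those fits 1.7% to 5.11% of all genes met both. The call of Cox6a2 in KO_ST against CT was absent (0 called) with a pseudocount of 5, without quantile normalization, without the read filter, with edgeR, with DESeq2, with all 9 mice in 1 fit and with the replicate block. At a minimum mean of 5 FPKM the gene was not tested, so the 0 calls there say nothing about it. The median log2 fold change of the members in KO_ST against CT was 0.06, then 0.0851 with edgeR and 0.0838 with DESeq2. With 1 mouse left out the medians were 0.02 to 0.05 in WT_ST against CT, 0.05 to 0.07 in KO_ST against CT and 0.01 to 0.03 in KO_ST against WT_ST.

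The deviations of mice with the same replicate number had a mean correlation of -0.0101 over 9 such pairs (-0.259 to 0.234) and 0.00493 over the 18 other pairs. Deviations were taken from each group's own mean, which ties these means to each other. Whether the numbers pair the mice therefore cannot be told from them. With the replicate block the counts at an unadjusted p under 0.05 were 7 higher and 2 lower in WT_ST against CT (3.42% of all genes each way), 2 and 1 in KO_ST against CT (5.19% and 5.6%), and 1 and 1 in KO_ST against WT_ST (2.25% and 2.37%), a total of 2 in the last.

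Of 1222 values of named genes under the alternatives, 1043 kept their direction and side of the threshold, 155 no longer passed, 21 newly passed and 3 turned direction. The 3 were Ndufb10 in KO_ST against WT_ST, at -0.0289 without WT_ST replicate 3 and -0.01 without KO_ST replicate 2 (range -0.0289 to 0.0359 with 1 mouse left out), and Rgs5 in that comparison, at 0.0447 without KO_ST replicate 1 (range -0.2746 to 0.0447). The causes of these shifts were not tested. Cox6a2, Cox4i2, Cox6b2 and Ndufa4l2 had fewer than 200 reads in every mouse, which limits the precision of their values.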
